A study of Rattus with 8 samples.

Results

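The short predicted small RNAs are the entries of the deposited hippocampal small RNA table that were predicted from the reads themselves, carry no miRBase name and have a mature sequence of 18 nt or less. They were chosen by name and length alone, and the rule uses no measured level, although it was set with earlier results of these data known. Of 615 mature names in the table, 464 were miRBase miRNAs and 151 were predicted, and 55 of the predicted names met the length limit. These 55 names held 50 distinct sequences, because 5 sequences were listed under 2 names each. They are called here by the part of the name that tells them apart, a chromosome and a running number (chr12_5030), without the prefix that all predicted names of the table share. All were 17 nt (40 names) or 18 nt (15 names) long, although the authors kept trimmed reads of 15 nt and longer.

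Small RNA was sequenced from the hippocampus of male Sprague-Dawley rats aged 9 weeks, with 1 library per rat and 4 rats in each group. CPB/DHCA rats underwent cardiopulmonary bypass (CPB, circulation of the blood through an external pump and oxygenator) and deep hypothermic circulatory arrest (DHCA), in which they were cooled to 18 °C over 30 min, kept without circulation for 30 min and rewarmed over about 60 min. Control rats were sham-operated, that is, anesthetized, intubated and cannulated without CPB or DHCA. Tissue was taken at 24 h in both groups, so the comparison covers bypass, cooling, arrest and rewarming together, at a single time and in one sex.

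MicroRNAs are cut from hairpin precursors by Drosha and Dicer and guide Argonaute proteins to messenger RNAs, mainly through the seed near their 5′ end. Most mature miRNAs are a few bases longer than these sequences. A size-selected small RNA library also takes up trimmed miRNAs and pieces of other RNAs, including transfer RNA (tRNA), to whose 3′ end cells add the bases CCA after transcription. Prediction programs accept a read stack that folds as a hairpin, so a predicted name does not by itself establish a miRNA. In bulk tissue, fewer cells of a type and less RNA per cell cannot be told apart.

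Some of the sequences had features in common that the rule did not use. The first set is shown because it held 5 of the 9 names past the thresholds given below, and it ended in CCA, here in capitals (5′ to 3′). It comprised 5 sequences under 7 names.
chr1_1387: ucucgcuggggccuCCA
chr17_8588 and chr2_11669: ccccacguugggcgCCA
chr12_5030 and chr14_6526: ucccuguucgggcgCCA
chr5_16240: aucccggacgagcccCCA
chr15_7476: ucucggugggaccgCCA
The sequences of chr12_5030 and chr17_8588 shared their last 8 bases. Those of chr15_7476 and chr1_1387 differed at 3 positions counted from the 5′ end, G6C, A11G and G14U, with the base of chr15_7476 given first. A CCA end was found in 10% of the 50 short predicted sequences, in 2.17% of the predicted sequences over 18 nt and in 2.59% of the miRBase sequences. The match is a description of the letters on the listed strand, and the files assign none of these sequences to a tRNA.

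The second set lay inside a miRBase miRNA of the same table. It is shown because the short sequence and the full miRNA were counted separately, and the capitals mark the part of the miRNA that the short name covers.
rno-miR-378a-3p, covered by chr10_3078: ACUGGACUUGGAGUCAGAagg
rno-miR-873-5p, covered by chr7_18541: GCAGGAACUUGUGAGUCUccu
rno-miR-138-5p, covered by chr12_5232: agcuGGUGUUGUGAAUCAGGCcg
rno-miR-103-3p, covered by chr3_13616: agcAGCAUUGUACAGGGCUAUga
rno-let-7b-5p, covered by chr3_13855: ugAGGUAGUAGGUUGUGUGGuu
rno-miR-23a-3p, covered by chrX_22476: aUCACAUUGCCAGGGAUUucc
The same stretches also lie in rno-miR-107-3p (for chr3_13616) and rno-miR-23b-3p (for chrX_22476). Only chr10_3078 and chr7_18541 began at the first base of the miRNA, and these are the 2 of the 6 that keep its seed (bases 2 to 8).

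A further 5 names (4 sequences) differed from the start of a miRBase miRNA by 1 base, shown in capitals.
chr15_7357, U17C against rno-miR-125b-5p: ucccugagacccuaacC
chr2_11273, U16G against rno-let-7f-5p: ugagguaguagauugGa
chr5_16633, U17C against rno-miR-330-5p: ucucugggccugugucCu
chr6_17794 and chrX_22213, A6G against rno-miR-378a-3p: acuggGcuuggagucaga
Positions are counted from the 5′ end of the miRNA, whose base is given first. The authors' alignment permitted 1 mismatch, so how reads were split between such a name and its miRNA is uncertain. The A6G change falls inside the seed, whereas the other 3 sequences kept the seed of their miRNA.

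The remaining 37 names (35 sequences) did not end in CCA and matched no listed miRBase sequence with 0 or 1 mismatch. Of these, 4 passed both thresholds, shown with bases 2 to 8 in capitals because that is where a miRNA seed would lie.
chr7_18162: cGCGGGAAauguggcgua
chr2_12092: aUUGCAGGacacauuga
chr11_4787: uCACUUGAccagccuuu
chr15_7788: aGUGUGCUuggaauaaa
The most abundant short sequence belonged to the same set.
chr6_17649: cGUAGACGaccugcuuc
None of these 5 shared bases 2 to 8 with a listed miRBase miRNA. Among the 35 sequences 3 did, chr12_4990 with rno-miR-1247-3p, chr5_15806 with rno-miR-667-5p, and chr6_16982 with rno-miR-28-5p and rno-miR-708-5p. The names hold no start or end, and whether the sequences lie in exons, introns or intergenic DNA was not analysed here.

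The length limit fell in a gap of the predicted sequences. There were 15 predicted names of 18 nt just inside it, 2 of 19 nt just outside and 91 of 20 to 23 nt. The 15 names inside had 2 to 1594 tags each over the 8 libraries. The names outside were chr8_20335, with 47 control and 54 CPB/DHCA tags, and chr10_2753, with 2 control tags and none in the CPB/DHCA libraries. Only 2 miRBase miRNAs were as short as 18 nt. First bases were A in 13, C in 13, G in 9 and U in 15 of the 50 sequences, so that 30% began with U, against 40.8% of miRBase and 44.6% of the longer predicted sequences.

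**Figure D1:**
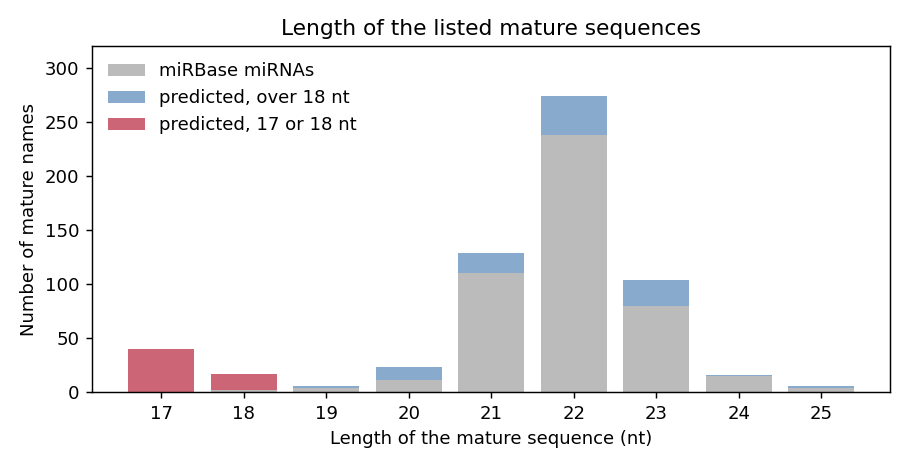
Number of mature names (y axis) by length of the mature sequence in nt (x axis), stacked by kind of name. The 55 short predicted names stand at 17 nt (40) and 18 nt (15), where only 2 miRBase miRNAs are listed, while most other names are 21 to 23 nt long.

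The deposited counts are tags, that is, reads assigned to a mature sequence, and summed to 620133 to 772840 in the control and 508574 to 672378 in the CPB/DHCA libraries. Levels are in CPM, tags per 1000000 after TMM scaling of the library totals. A single tag corresponds to 1.2 to 2 CPM, which sets the precision of the low members. No count of 1 was listed, and empty cells, which may hide a single tag, were read as 0. This concerned 119 of the 440 cells of the short predicted names. The 3 neuronal miRNAs on the marker list (rno-miR-9a-5p, rno-miR-124-3p and rno-miR-128-3p) were all listed, at 231924 to 334837 summed CPM in control and 182533 to 369237 in CPB/DHCA libraries. Summed levels of the oligodendrocyte list (2 of 2 listed) were 989 to 1299 CPM in control and 865 to 3366 CPM in CPB/DHCA libraries, those of the erythrocyte list (3 of 3) were 96.9 to 136 and 104 to 181 CPM, and those of the leukocyte list (3 of 3) were 401 to 621 and 464 to 539 CPM. The ranges overlapped between the groups for each list, and the liver miRNA rno-miR-122-5p was at 0 to 10 CPM.

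Taken as names, the short predicted sequences held 0.307 to 0.605% of the listed tags of a control library and 0.501 to 0.882% of those of a CPB/DHCA library. The deposited TPM (tags per 1000000 aligned miRNA tags) imply larger totals of aligned tags. Of these totals, the listed tags were 25.28 to 25.9% in control and 25.34 to 26.83% in CPB/DHCA libraries. The short names were unevenly filled. With each sequence counted once they had 24430 tags, of which the most abundant held 32.9%, the top 5 held 76.4% and the top 10 held 90.7%. Between 37 and 41 names were listed in a control library and between 38 and 44 in a CPB/DHCA library, and 29 names were listed in all 8.

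By kind of sequence, the 5 ending in CCA held 43.9% of these tags and the 10 like a miRBase miRNA held 6.47%. The other 35 held 49.6%, most of it from a single sequence, chr6_17649. That sequence had rank 58 by mean CPM in the whole table. It stood at 1599, 1150, 1212 and 2027 CPM in control 1 to 4 and at 1267, 2423, 1358 and 1536 CPM in CPB/DHCA 1 to 4. The groups overlapped over most of their range, and the log2 fold change of CPB/DHCA over control was 0.14 ± 0.26 (SE, edgeR quasi-likelihood p = 0.61, exact permutation p = 0.63), with its sign depending on single libraries (-0.11 to 0.32 with each left out in turn).

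The comparison of CPB/DHCA with control asks which hippocampal small RNAs differed in level a day after arrest. All names with at least 10 tags in total and listed in at least 4 libraries entered a single edgeR quasi-likelihood fit, 467 of the 615 names, and 42 of the 55 short predicted names (37 sequences) passed this filter. Of the 42, 3 (chr15_7788, chr1_1772 and chr8_20405) were listed in fewer than 2 control libraries, so that they passed the filter mainly through the CPB/DHCA libraries, and none was listed in fewer than 2 CPB/DHCA libraries. Names were called past the study's thresholds, that is, when they changed 1.5 times or more with a p no larger than 0.05 before adjustment. Of the short predicted names 9 (7 sequences) were higher in CPB/DHCA past both thresholds, which is 21.4% of the 42, and none was lower. With each sequence counted once, the share was 18.9% of the 37. Without those 3 names, 8 of 39 were higher. Over the whole table, 3.85% of the tested names were higher and 3.43% were lower, so that the 9 were among 18 higher names in all. Those 18 also included 8 miRBase miRNAs and 1 longer predicted name.

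After Benjamini-Hochberg adjustment of the edgeR p values over all 467 names, no short predicted name had an adjusted p under 0.05, the lowest being 0.53, while 0.214% of the table (1 name) did. The count of 0 stands beside 9 names at an unadjusted p under 0.05, and DESeq2 and limma on log2(TPM + 1) each gave 10 such names. All calls named here are therefore unadjusted. With control 3 left out, 4 of the short predicted names passed both thresholds, beside 9 higher and 9 lower of all 467 names. With CPB/DHCA 2 left out the number was also 4, beside 17 higher and 13 lower of the 467.

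Of the 42 tested names, 34 (81%) had a log2 fold change above 0, compared with 40.5% of the whole table. Without the 3 names listed in fewer than 2 control libraries, 31 of 39 were above 0. The median log2 fold change of all 42 names was 0.63, against -0.05 over all tested names of the table. It was -0.07 for miRBase miRNAs and -0.10 for predicted names over 18 nt. With each of the 37 tested sequences counted once, 30 were above 0 and the median was 0.53. Among the 25 short names with at least 50 tags the median was 0.66. The 3 kinds of sequence differed in their medians, which were 0.76 for the 7 names ending in CCA, -0.26 for the 9 tested names like a miRBase miRNA and 0.67 for the 26 others. The difference between the kinds was not tested.

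**Figure D2:**
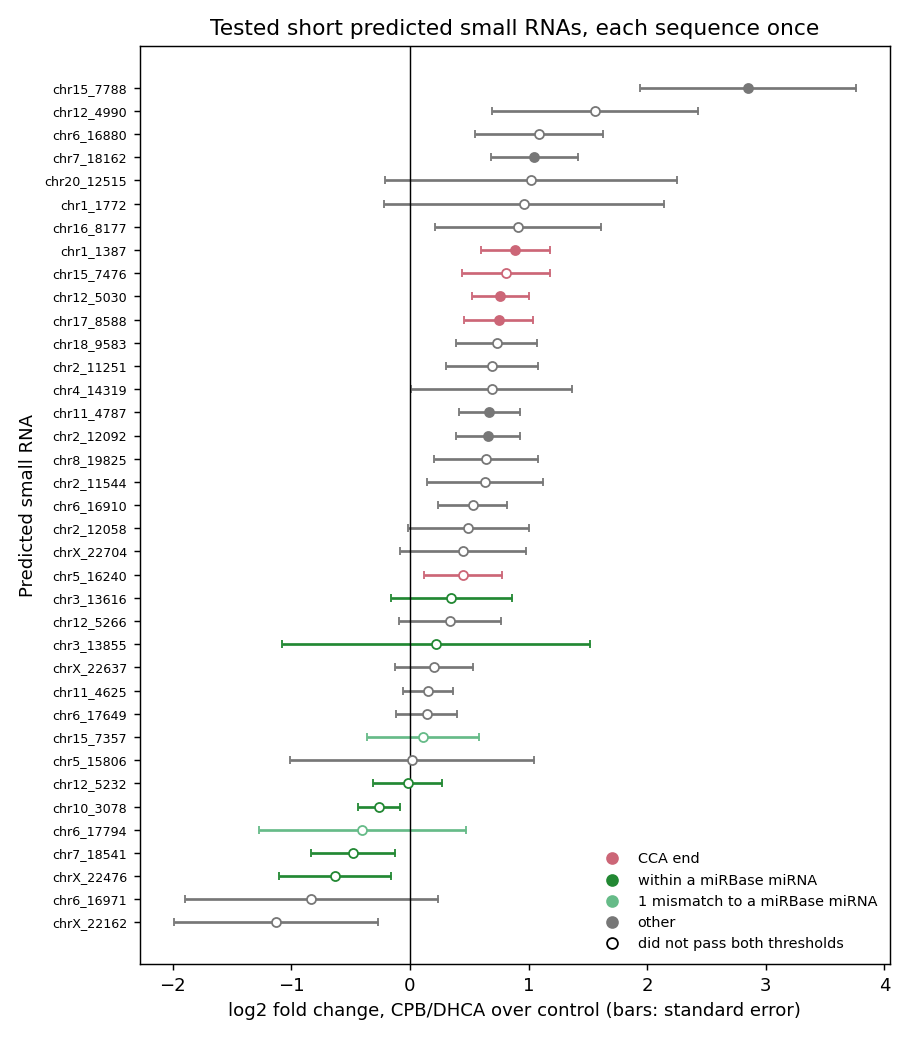
Log2 fold change of CPB/DHCA over control (x axis, points, with bars for the standard error of the edgeR fit) for the 37 tested sequences, each shown once and coloured by kind of sequence. Filled points passed both thresholds. All 5 sequences ending in CCA lie between 0.45 and 0.89, and the sequences like a miRBase miRNA lie between -0.63 and 0.35.

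The sequences ending in CCA were all higher on average in CPB/DHCA, and 3 of the 5 sequences (5 of the 7 names) passed both thresholds. Over the whole table, 40.5% of the tested names were above 0 and 3.85% were called higher. The CCA set is shown because of its calls, so these counts, its median and its summed level describe it and are no test. The most abundant CCA sequence, chr1_1387, stood at 754, 777, 435 and 978 CPM in control 1 to 4. In CPB/DHCA 1 to 4 it stood at 971, 1971, 1399 and 1127 CPM. Only the highest control library (control 4) reached above the lowest CPB/DHCA library (CPB/DHCA 1). The log2 fold change was 0.89 ± 0.29 (SE, edgeR p = 0.012, exact two-sided permutation p = 0.057), and it passed both thresholds with any 1 library left out.

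The sequence of chr12_5030, listed also as chr14_6526 with the same counts, stood at 308, 203, 162 and 291 CPM in control and at 334, 511, 416 and 375 CPM in CPB/DHCA. The groups did not overlap. Its log2 fold change was 0.76 ± 0.24 (SE, edgeR p = 0.011), the exact permutation p was 0.029, the smallest that 4 libraries against 4 allow, and the call held with any 1 library left out.

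The sequence of chr17_8588 and chr2_11669 stood at 365, 244, 191 and 407 CPM in control and at 352, 719, 474 and 483 CPM in CPB/DHCA. CPB/DHCA 1 lay among the controls and the other CPB/DHCA libraries lay above them all. The log2 fold change was 0.75 ± 0.29 (SE, edgeR p = 0.03, exact permutation p = 0.086). This call was lost without control 2, control 3 or CPB/DHCA 2, with log2 fold changes from 0.53 to 0.93 over the libraries left out.

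The 2 other CCA sequences did not pass both thresholds. chr5_16240 stood at 305, 268, 132 and 340 CPM in control and at 214, 449, 460 and 302 CPM in CPB/DHCA, with a log2 fold change of 0.45 ± 0.33 (SE, edgeR p = 0.21, exact permutation p = 0.31). The groups overlapped widely. chr15_7476, the least abundant of the set, stood at 19.8, 10.8, 15.3 and 22.4 CPM in control and at 17.6, 48.1, 22.8 and 32 CPM in CPB/DHCA, with a log2 fold change of 0.81 ± 0.37 (SE, edgeR p = 0.056, exact permutation p = 0.11). It passed both thresholds in 5 of 11 other settings, such as library totals without TMM factors (0.81) and DESeq2 size factors (0.86), and in 2 of the 8 fits that leave out 1 library.

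Summed over the 5 sequences, the CCA set stood at 1752, 1503, 936 and 2039 CPM in control (1557 ± 469, SD, n = 4) and at 1888, 3697, 2772 and 2320 CPM in CPB/DHCA (2669 ± 774, SD, n = 4). The ratio of the means was 1.71, and it was 1.51 without control 3 and 1.49 without CPB/DHCA 2. CPB/DHCA 1 lay within the control range and the other CPB/DHCA libraries lay above it. The same end also occurs outside the short predicted names. Of the 11 tested miRBase miRNAs with such an end, 5 had a log2 fold change above 0 (median -0.27), and none passed both thresholds. The only tested longer predicted name with a CCA end had a log2 fold change of -0.10.

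**Figure D3:**
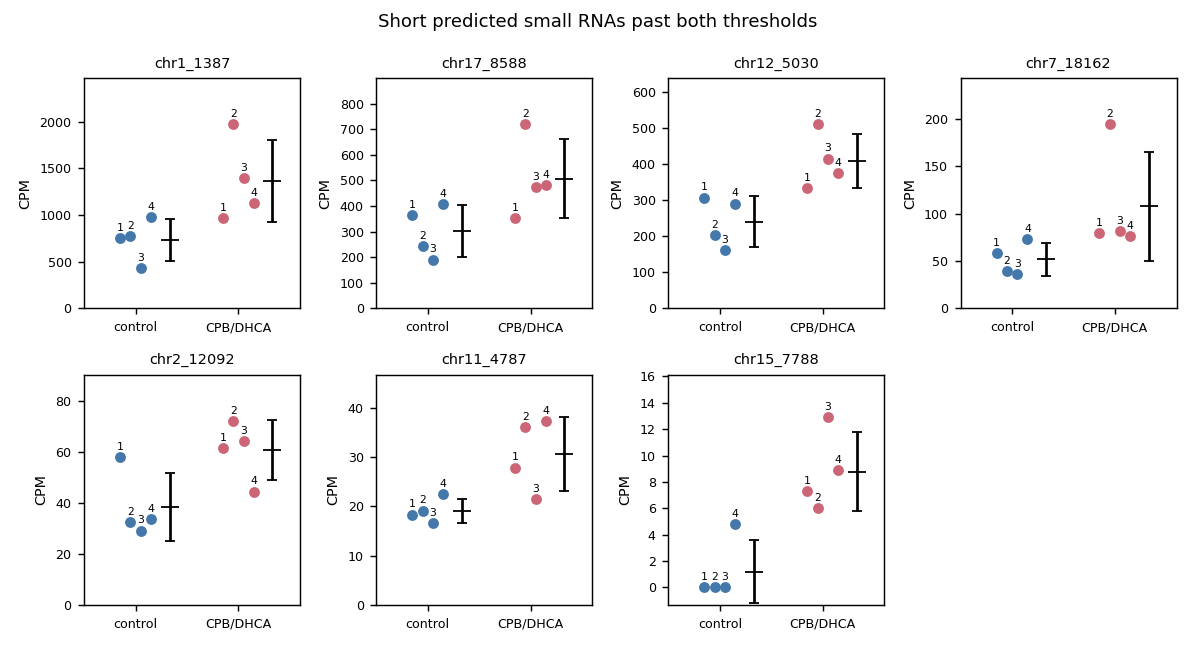
Level in CPM (y axis, from 0 or from the end of the error bar) in the 4 control and 4 CPB/DHCA libraries for the 7 sequences past both thresholds, each under 1 of its names. Points are libraries with their replicate number, and the black mark with bars is the mean with its SD. CPB/DHCA 2 is the highest library for 5 of the 7 sequences.

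Of the names that neither ended in CCA nor resembled a miRBase miRNA, 26 (24 sequences) were tested. Of these 26 names, 24 had a log2 fold change above 0, compared with 40.5% of the whole table. Past both thresholds 4 names were higher (15.4%), compared with 3.85% of the whole table. The 26 include chr15_7788, which was called, and chr1_1772 and chr8_20405, which were not. All 3 were above 0 and listed in fewer than 2 control libraries, so they passed the filter mainly through the CPB/DHCA libraries. The shares are therefore given as a description. chr7_18162 stood at 58, 39.5, 36 and 73.5 CPM in control and at 79.1, 194, 81.4 and 76.4 CPM in CPB/DHCA. The groups did not overlap, but CPB/DHCA 2 stood far above the other 3. The log2 fold change was 1.05 ± 0.37 (SE, edgeR p = 0.018, exact permutation p = 0.029). It was 0.61 at the lowest with 1 library left out, and the call was lost without control 3 or without CPB/DHCA 2. A second predicted sequence, chr2_12058, shares 15 bases with it, shown here in capitals.
chr2_12058: cggCGCGGGAAAUGUGGC
chr7_18162: CGCGGGAAAUGUGGCgua
chr2_12058 had a log2 fold change of 0.49 ± 0.51 (SE, edgeR p = 0.36, exact permutation p = 0.51). Whether both names count reads of the same RNA was not analysed here.

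chr11_4787 stood at 18.3, 19.1, 16.6 and 22.4 CPM in control and at 27.8, 36, 21.4 and 37.3 CPM in CPB/DHCA. Control 4 reached just above CPB/DHCA 3, the lowest of its group, and the other libraries were apart. The log2 fold change was 0.67 ± 0.26 (SE, edgeR p = 0.029, exact permutation p = 0.057), and the call was lost in 4 of the 8 fits that leave out 1 library (control 1, control 3, CPB/DHCA 2 or CPB/DHCA 4). It was also lost with DESeq2, with limma on either log2 scale and with the replicate number as a block, at log2 fold changes of 0.72, 0.50 (log2(TPM + 1)), 0.22 (log2(TPM + 10)) and 0.66.

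chr2_12092 stood at 58, 32.3, 29.1 and 33.6 CPM in control and at 61.5, 72.1, 64.3 and 44.4 CPM in CPB/DHCA. Control 1 lay apart from the other controls and inside the CPB/DHCA range. The log2 fold change was 0.66 ± 0.27 (SE, edgeR p = 0.036, exact permutation p = 0.057), and the call held in only 2 of the 8 fits that leave out 1 library, those without control 1 or without CPB/DHCA 4. It was also lost with limma on log2(TPM + 10), at 0.38.

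chr15_7788 was the rarest name past the thresholds, with 3 tags in control, all in control 4, and 22 in CPB/DHCA. It stood at 0, 0, 0 and 4.79 CPM in control and at 7.32, 6.01, 12.9 and 8.89 CPM in CPB/DHCA. It was listed in every CPB/DHCA library and in 1 control library, and it met the filter on counts and libraries only through the group where it is high, so that its call and the lack of overlap between its groups are given as a description. The ratio of tag rates was 8.51, with an exact 95% interval of 2.56 to 44.4 that covers counting error only. The fitted log2 fold change of 2.85 ± 0.91 (SE, edgeR p = 0.011, exact permutation p = 0.029) ranged from 2.44 to 5.59 with 1 library left out, the highest value being against controls that are all at 0 and therefore no measure of size, and the call held each time. It was 2.00 with every empty cell read as 1 tag, 1.52 with limma on log2(TPM + 1), and 0.28 and no longer called with limma on log2(TPM + 10).

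Another sequence had groups that did not overlap without reaching the p threshold. Listed as chr18_9583 and chr4_14992, it stood at 58, 34.7, 20.8 and 59.1 CPM in control and at 61.5, 98.1, 60 and 67.5 CPM in CPB/DHCA. The highest control and the lowest CPB/DHCA library were close together. The log2 fold change was 0.73 ± 0.34 (SE, edgeR p = 0.056, exact permutation p = 0.029). The sequence passed both thresholds in 7 of 11 other settings, among them DESeq2 (0.79) and the replicate block (0.80), and in 2 of the 8 fits that leave out 1 library. In all, 6 of the 42 tested names (14.3%, 4 sequences) had groups that did not overlap, or 5 of 39 without the 3 names listed in fewer than 2 control libraries, all higher in CPB/DHCA, compared with 2.36% of the whole table that were higher in that way.

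Among the 10 most abundant names were also chrX_22637 and chr6_16910. The first stood at 171, 148, 83.2 and 272 CPM in control and at 145, 232, 203 and 196 CPM in CPB/DHCA, with a log2 fold change of 0.20 ± 0.33 (SE, edgeR p = 0.55, exact permutation p = 0.54). The second stood at 142, 88.6, 66.6 and 158 CPM in control and at 158, 196, 127 and 174 CPM in CPB/DHCA, with a log2 fold change of 0.53 ± 0.29 (SE, edgeR p = 0.099, exact permutation p = 0.14). In both, the groups overlapped, and control 3 was the lowest library of all.

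The other names of this kind that were tested and did not pass, 22 with those above, had log2 fold changes from -1.13 to 1.56 and p values from 0.056 to 0.99. The lowest value belonged to chrX_22162, with 25 tags in all. The highest belonged to chr12_4990, with 26 tags and a standard error of 0.87. It passed both thresholds with empty cells read as 1 tag (1.26) and without control 1 (2.32). The 11 tags of the sequence listed as chr1_1772 and chr8_20405 gave 0.96 ± 1.18 (SE, edgeR p = 0.44, exact permutation p = 0.49).

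Among the names like a miRBase miRNA, 9 (8 sequences) were tested and 3 had a log2 fold change above 0, compared with 40.5% of the whole table. None passed both thresholds, compared with 3.85% of the whole table that were higher and 3.43% that were lower. The most abundant name of this kind, chr10_3078, stood at 230, 233, 243 and 190 CPM in control and at 168, 192, 161 and 226 CPM in CPB/DHCA. Control 4 lay within the CPB/DHCA range, and the other controls lay above it. Its log2 fold change was -0.26 ± 0.18 (SE, edgeR p = 0.17, exact permutation p = 0.086). The full miRNA rno-miR-378a-3p had -0.38 ± 0.15 (SE), below the fold threshold, and the short form had 44% as many tags as the full one.

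chr7_18541 had 39.3% as many tags as its miRNA rno-miR-873-5p, at 88 tags, with a log2 fold change of -0.48 ± 0.35 (SE) against -0.41 ± 0.45 (SE) for the miRNA. The other short forms were rare beside their miRNAs. chr12_5232 had 3.21% of the tags of rno-miR-138-5p, and both had a log2 fold change of -0.02. chrX_22476 had 0.934% of the tags of rno-miR-23a-3p and 1.09% of those of rno-miR-23b-3p, with a log2 fold change of -0.63 ± 0.47 (SE) against -0.20 and -0.02.

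The short form of rno-miR-103-3p, chr3_13616, had 0.0533% of its tags, with a log2 fold change of 0.35 ± 0.51 (SE) against 0.26 ± 0.12 (SE). That of rno-let-7b-5p, chr3_13855, had 0.0148%, with 0.22 ± 1.30 (SE) against -0.04 ± 0.12 (SE). At 21 and 10 tags, changes of the short forms were not detectable at this depth. The difference between a short form and its miRNA was not tested.

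Of the sequences with 1 changed base, only chr15_7357 had more than 18 tags. It stood at 74.8, 56.2, 31.9 and 9.59 CPM in control and at 48.3, 48.1, 51.4 and 39.1 CPM in CPB/DHCA. The control libraries spread widely around the CPB/DHCA libraries, and the log2 fold change was 0.11 ± 0.47 (SE, edgeR p = 0.82, exact permutation p = 0.66), with 0.282% of the tags of rno-miR-125b-5p. The A6G sequence, listed as chr6_17794 and chrX_22213, had 18 tags, 0.727% of those of rno-miR-378a-3p, and a log2 fold change of -0.40 ± 0.87 (SE). chr2_11273 and chr5_16633 had 2 and 4 tags, all in CPB/DHCA libraries, and were not tested.

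In sum over the 10 sequences like a miRBase miRNA, the level was 318 ± 41.6 CPM in control and 278 ± 26.4 CPM in CPB/DHCA (SD, n = 4 each), a ratio of 0.874. The 35 other sequences summed to 2147 ± 631 CPM and 2595 ± 725 CPM (SD, n = 4 each), a ratio of 1.21, which was 1.11 without control 3 and 1.04 without CPB/DHCA 2. The predicted sequences over 18 nt summed to 4166 ± 88.6 CPM and 4065 ± 276 CPM (SD, n = 4 each), a ratio of 0.976. The spread between libraries of a group was wider for the short sequences of both larger kinds than for the longer predicted sequences.

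**Figure D4:**
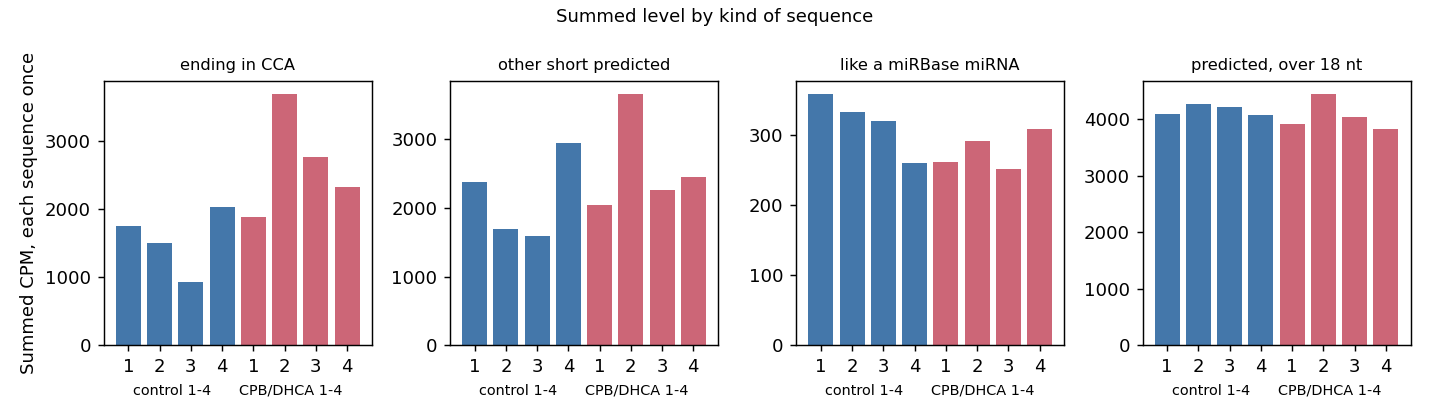
Summed level in CPM with each sequence counted once (y axis, from 0, scaled separately in each panel) in each library (x axis, control 1 to 4 in blue and CPB/DHCA 1 to 4 in red) for 3 kinds of short predicted sequence and for predicted sequences over 18 nt. CPB/DHCA 2 is highest and control 3 lowest for the CCA set and for the other short sequences.

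The same libraries stood at the ends for many sequences at once. Of the 37 tested sequences, 17 were lowest of all 8 libraries in control 3 and 17 were highest of all 8 in CPB/DHCA 2. Within the controls, control 4 was highest for 22 sequences. Among the 5 CCA sequences control 3 was lowest in 4, CPB/DHCA 2 was highest in 4, and CPB/DHCA 1 was the lowest of its group in all 5. CPB/DHCA 2 was the shallowest library (508574 tags) and control 3 was among the deepest (756119 tags). The part of depth in the levels of the short sequences was not tested. Without control 3, the median log2 fold change of the 42 tested names was 0.45 with 31 above 0, and without CPB/DHCA 2 it was 0.48 with 31 above 0.

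The 13 names that were not tested had 2 to 8 tags each. Of these, 8 were listed only in CPB/DHCA libraries, 2 only in control libraries and 3 in both. At 2 to 4 tags per listed library, differences between the groups were not detectable at this depth, and the filter on counts and libraries left them out whichever group they were listed in.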

How the data were processed

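Reads were trimmed with cutadapt 1.9.3 by the authors, and trimmed reads of at least 15 nt were aligned with Novoalign 3.02.12, with up to 1 mismatch, to precursors of miRBase and to predicted precursors. The submitters' processing notes name the rn6 build. The miRBase release is not given in the sources used here. The table of counts, as deposited, gives unnormalized tags per mature miRNA, on 669 lines for 615 mature names. The deposited TPM values were rounded to whole numbers by the authors and were treated as a score, used in alternatives only. The authors' own fold changes and P values were not used. The batch entry of the labels is the same for all 8 libraries, which held 508574 to 772840 listed tags.

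Counts were analysed with edgeR 4.0.16 in R 4.3.3 (TMM factors, glmQLFit and glmQLFTest, two-sided) on all names with a total of at least 10 tags and a listing in 4 or more libraries, with Benjamini-Hochberg adjustment over all 467. The biological coefficient of variation common to all names was 0.415. The SE of a log2 fold change was its size divided by the square root of the F statistic. Exact two-sided permutation tests used log2(CPM + 1) over all 70 assignments. The edgeR p values set the group difference against the spread between rats, with a dispersion estimated using all 467 names. The permutation p values rank the observed difference of means among the 70 assignments and cannot fall below 0.029. The procedure was tested on simulated data.

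The rule for the members reads only names and lengths, but the rule, the members and the lists were chosen with earlier results of these data known. Named were members past both thresholds, the 10 most abundant, those with an identical sequence under another name, those ending in CCA and those matching a miRBase miRNA. Members that illustrate a range, a shared stretch or a shared seed, and those next to the length limit, were named after their values were seen. Alternatives were DESeq2 1.42.0, limma 3.58.1 on log2(TPM + 1) and log2(TPM + 10), other scaling and filters, empty cells read as 1 tag, identical sequences collapsed, a replicate block and each library left out in turn. The counts without the names listed in fewer than 2 control libraries were chosen after seeing the data. Python 3.11.15, pandas 2.3.3, numpy 2.4.6 and scipy 1.17.1 served for the rest.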

Additional observations from a re-analysis of the deposited data

Results flagged for a closer look

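In 60 groups of 4 libraries, those of the tested short sequences named in the text and of 4 summed levels, the highest or lowest library was compared with the others, and in 5 groups 1 library stood apart by more than Dixon's 95% critical value for its share of the range. Chance gives such a gap in about 1 in 20 groups.

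For chr7_18162, CPB/DHCA 2 stood at 194 CPM, while the other CPB/DHCA libraries stood at 76.4 to 81.4 CPM. For chr2_12092, control 1 stood at 58 CPM, while the other controls stood at 29.1 to 33.6 CPM. For chr15_7788, control 4 stood at 4.79 CPM (3 tags) with the other controls at 0. For chr1_1772, which has the same sequence and counts as chr8_20405, control 2 stood at 4.79 CPM with the other controls at 0. For chrX_22162, control 4 stood at 12.8 CPM, while the other controls stood at 4.16 to 4.79 CPM.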

How the results depend on the processing

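For the 31 tested members named in the text, 543 of 573 values under alternatives kept the reported direction. The 31 include 5 pairs of names with an identical sequence, whose equal values were counted under each name. Leaving out 1 library moved the number of members past both thresholds from 9 to between 4 (without control 3, and without CPB/DHCA 2) and 14 (without control 4); without control 2, 6 were higher and 1 was lower. Over all small RNAs, 34 names passed both thresholds, 12 with limma on log2(TPM + 10), and 18 to 44 with 1 library left out. The members' count was 6 with limma on log2(TPM + 10), 12 with DESeq2 size factors or the aligned totals implied by the TPM, and 9 to 11 under the rest. Whether replicate numbers pair the rats is not known. For each name, the group mean was subtracted from the log2 level of each library. Between same-numbered libraries these deviations correlated at 0.195, -0.077, -0.061 and 0.501, which cannot decide it. By the deviations, libraries 1 and 4 alone correlated best with their own number. With a replicate block, 10 members passed and 33 were above 0.

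Direction changed only for members whose log2 fold change was smaller than its standard error. For chr12_5232 (-0.02) the log2 fold change was 0.03 with DESeq2, with DESeq2 size factors and with at least 50 tags, 0.02 with identical sequences collapsed, 0.01 with implied totals and with empty cells read as 1 tag, and -0.09 to 0.07 with 1 library left out. For chr6_17794 and chrX_22213 (-0.40) it was 0.00 with limma on either log2 scale, which was counted as a change of direction. The value of 0.00 for chr3_13855 with limma was counted as kept. For chr5_15806 (0.02) it was -0.01 with no filter, -0.10 and -0.00 with limma on log2(TPM + 1) and log2(TPM + 10), -0.11 with the replicate block and -0.81 to 0.48 with 1 library left out. With 1 library left out it ranged from -0.21 to 0.50 for chr15_7357, from -0.68 to 1.07 for chr3_13855, from -0.11 to 0.32 for chr6_17649 and from -0.02 to 0.53 for chrX_22637. The cause was not tested. Depth limits the rare members, since 1 tag is 1.2 to 2 CPM.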
